A study of Mus musculus with 8 samples.

Results

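Small Maf proteins are basic leucine zipper factors that bind DNA but carry no activation domain of their own. The genes described here are the 3 small Maf genes Mafg, Maff and Mafk, 2 genes of partner proteins, Bach1 and Nfe2l1, and Pla2g6, which encodes a phospholipase and was included as the neighbour of Maff. They were chosen by symbol, and each matched 1 row, so they are 6 of the 25124 rows of the expression table. Pla2g6 is neither a Maf gene nor the gene of a known partner.

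Livers of fasted C57BL/6 mice were collected 1 h after vehicle or GW4064, a synthetic agonist of the bile acid receptor FXR, at 30 mg/kg. RNA-seq, on livers labelled WT, has 2 libraries per treatment, each from the pooled RNA of 2 mice, so 4 mice per treatment. GRO-seq, which sequences RNA extended by polymerases already engaged in isolated nuclei and so reads ongoing transcription, has 1 library for each treatment in Fxr-Flox mice (labelled WT) and in Fxr-LKO mice (labelled FXR KO), in which Albumin-Cre removes the floxed part of the FXR gene from hepatocytes. The labels give the vehicle as DMSO and the paper as corn oil. In the whole liver other cell types keep their FXR gene, and fewer cells of a type and less RNA per cell cannot be told apart.

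A small Maf dimer without a partner occupies Maf recognition elements and represses. With a CNC-type partner such as NFE2L1 or NRF2 it activates antioxidant and proteasome genes through overlapping elements, and with BACH1, which heme removes from DNA, it represses genes such as Hmox1. In mouse liver Mafg is known as a gene induced by FXR whose product represses genes of bile acid synthesis. Pla2g6 encodes the calcium-independent group VI phospholipase A2, which releases fatty acids from membrane phospholipids.

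The small Maf proteins are built alike, and the coding stretch in which the 3 genes are most similar is shown because it bears on whether reads could be assigned to the wrong gene. It spans coding bases 154 to 213, codons 52 to 71, in each gene (GENCODE, GRCm38), and capitals mark the 9 of 60 positions at which the genes differ.
Mafg: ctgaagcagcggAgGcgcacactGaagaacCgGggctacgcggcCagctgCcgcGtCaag
Maff: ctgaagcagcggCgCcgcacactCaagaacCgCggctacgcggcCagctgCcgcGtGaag
Mafk: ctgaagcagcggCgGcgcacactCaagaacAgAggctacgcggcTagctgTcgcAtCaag
Maff differed from Mafg at 5 of these positions with the same encoded residues, and Mafk differed at 7, with a change of residue. Over the whole coding sequence, 70.3% of bases were identical between Mafg and Mafk, 67.1% between Mafg and Maff and 69.4% between Maff and Mafk. The longest stretch shared without a mismatch by any pair of their transcripts was 23 bases, shorter than the reads of 100 bases (RNA-seq) and 80 bases (GRO-seq).

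The sequences upstream of the genes that rose after GW4064 are shown so that the elements named above can be looked for. They come from the RefSeq promoter table (GRCm38.p6), read 5′ to 3′ on the gene's strand, with bases in annotated exons of the gene left out. They are chr11:120633601-120633797 (minus strand) for Mafg, chr15:79346371-79346620 and chr15:79347270-79347519 (plus strand) for 2 alternative starts of Maff, and chr15:79328391-79328621 (minus strand) for Pla2g6. Capitals mark matches on either strand to the motifs described next.
Mafg: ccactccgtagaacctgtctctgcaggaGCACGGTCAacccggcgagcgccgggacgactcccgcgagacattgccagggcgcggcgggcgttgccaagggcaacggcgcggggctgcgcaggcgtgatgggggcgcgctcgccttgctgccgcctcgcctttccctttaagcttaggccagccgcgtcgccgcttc
Maff, upstream start: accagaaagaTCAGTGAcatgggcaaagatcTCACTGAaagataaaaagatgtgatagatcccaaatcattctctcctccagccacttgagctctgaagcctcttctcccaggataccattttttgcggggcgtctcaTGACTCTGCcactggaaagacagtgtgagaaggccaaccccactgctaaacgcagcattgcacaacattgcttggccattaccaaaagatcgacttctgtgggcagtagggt
Maff, middle start: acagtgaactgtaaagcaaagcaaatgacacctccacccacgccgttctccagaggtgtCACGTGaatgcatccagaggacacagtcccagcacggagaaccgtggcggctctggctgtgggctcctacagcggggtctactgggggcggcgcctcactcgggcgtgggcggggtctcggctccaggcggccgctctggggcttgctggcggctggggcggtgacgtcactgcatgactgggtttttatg
Pla2g6: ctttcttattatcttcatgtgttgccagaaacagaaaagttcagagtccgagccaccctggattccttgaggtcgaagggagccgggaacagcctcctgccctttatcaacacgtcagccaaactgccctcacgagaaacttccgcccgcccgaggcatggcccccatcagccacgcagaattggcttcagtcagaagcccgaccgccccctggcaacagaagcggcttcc
All 6 genes had an entry in this table. The search covered the 250 bases before each start, including bases in exons that are not shown, in all 32851 promoters. Percentages below are per start, whereas a gene was counted if any of its starts had a match. Maff and Nfe2l1 have several starts, some with overlapping windows, so the gene counts cannot be compared with these percentages. The antioxidant response element core TGACNNNGC was found before a start of Mafg, Maff and Mafk and in 10.2% of all promoters. In Mafg it began 222 bases before the start, counted from its first base on the gene's strand, and in Maff 112 bases before the upstream start. The E-box CACGTG was found before a start of the same 3 genes and in 6.02% of all promoters. The Maf core TGCTGA was found for Mafk, Bach1 and Nfe2l1 and in 16.1% of promoters, and the nuclear receptor hexamer AGGTCA only for Nfe2l1 among these 6 genes and in 14.0%. FXR with its partner RXR is known to bind inverted hexamers that face each other across 1 base. The core of such a pair, GTCANTGAC, was found for none of the 6 genes and in 0.320% of promoters. Its inner bases TCANTGA, a motif added after the sequences were seen, occurred at 2 places before the upstream start of Maff and in 5.93% of promoters. No motif was found before the start of Pla2g6, nor before the third start of Maff in the table, 79348402, which is the start of the row measured here and whose upstream bases are not printed. The Mafg stretch had 68.0% G and C over its 250 bases, and the Pla2g6 stretch 55.6%, against a median of 52.4% over all promoters.

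Levels are given as RPKM, reads scaled to the row length and to the library total, over the whole row. Row lengths include introns, so an order of RNA-seq levels between genes is an order of read density per row and not of transcript numbers. RNA-seq libraries held 13924472 to 14047246 reads. GRO-seq libraries held 14173696 (Fxr-Flox vehicle), 10593312 (Fxr-Flox GW4064), 5141665 (labelled FXR KO, vehicle) and 5069394 reads (labelled FXR KO, GW4064), so values in the libraries labelled FXR KO have the wider counting error. Nr1h4, the FXR gene, was at 15.1 RPKM in the Fxr-Flox vehicle library and at 16.7 RPKM in the vehicle library labelled FXR KO, and at 4.23 and 20.6 RPKM after GW4064. Its row covers the whole gene and not the deleted part alone, so it does not check the deletion. Abcb11, the bile salt export pump gene induced by FXR, went from 4.61 to 56.0 RPKM in Fxr-Flox libraries and from 1.20 to 1.58 RPKM in those labelled FXR KO. Nr0b2, the gene of the FXR-induced corepressor SHP, went from 3.65 to 36.6 RPKM in Fxr-Flox libraries and from 0.118 RPKM (2 reads) to 1.19 RPKM (20 reads) in those labelled FXR KO. No marker of hepatocytes, Kupffer, stellate, sinusoidal endothelial, biliary or blood cells passed the RNA-seq test with limma, with 5 of 28 at an unadjusted p under 0.05 and 1, the hepatocyte gene Ttr, called by limma-voom on rebuilt reads. Of all 11408 genes tested, limma-voom called 522 higher and 481 lower. The share of all genes at an unadjusted p under 0.05 with limma was not counted. The summed level of 7 hepatocyte markers was 424 to 431 RPKM with vehicle and 406 to 460 RPKM with GW4064 in RNA-seq. In GRO-seq it was 588 and 715 RPKM in Fxr-Flox libraries and 1023 and 952 RPKM in those labelled FXR KO.

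In RNA-seq, Mafg, Maff and Pla2g6 were higher in both GW4064 libraries than in either vehicle library and passed the test. Mafk, Bach1 and Nfe2l1 did not pass. Nfe2l1 was also higher in both GW4064 libraries and Mafk lower in both, so such separation did not set the called genes apart. The share of all genes that separated was not counted. All 6 genes passed the filter on low values, and 3 of the 6 were called higher and none lower at an adjusted p under 0.05 from limma, where 2.13% of the 11408 genes tested were called higher and 1.15% lower. The median log2 difference of all genes tested was -0.0028. With any one of the 4 libraries left out, 0 of the 6 genes passed, although all 3 stayed at an unadjusted p of at most 0.0065 in each of these fits.

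Mafg, the small Maf gene with the highest level per row length, was at 11.4 and 10.8 RPKM in the vehicle libraries and at 19.9 and 18.2 RPKM in the GW4064 libraries. The means rose from 11.1 ± 0.395 to 19.1 ± 1.22 RPKM (SD, n = 2 libraries each). This is a 1.71-fold increase (95% interval 1.48 to 1.97), with a log2 fold change (log2 FC) of 0.77 (SE, the standard error, 0.07, limma adjusted p = 0.030). Fold changes were fitted on log2(RPKM + 0.1), which understates the change of low genes. Its row lies on chromosome 11 of mm10 from 120628351 to 120633547 on the minus strand.

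Maff, the small Maf gene with the lowest level per row length, was at 0.767 and 0.967 RPKM with vehicle and at 2.33 and 2.58 RPKM with GW4064. The increase was 2.65-fold (95% interval 2.06 to 3.41), a log2 FC of 1.41 (SE 0.13, limma adjusted p = 0.028). It rests on 114 and 145 reads with vehicle and 346 and 385 reads with GW4064. The row lies on chromosome 15 from 79348402 to 79359076 on the plus strand. Among the 243 genes called higher, Maff ranked 61, Pla2g6 76 and Mafg 162 by log2 FC.

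Mafk, whose product has the same partners, was at 2.80 and 2.76 RPKM with vehicle and at 2.71 and 2.52 RPKM with GW4064. Both GW4064 values lay just below the vehicle values. The log2 FC was -0.08 (SE 0.06, 95% interval -0.25 to 0.09, limma adjusted p = 0.50), so the interval does not reach a change of the size fitted for Mafg. Its row lies on chromosome 5 from 139791536 to 139802652.

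Summed over the 3 small Maf genes, RNA-seq levels were 15.0 and 14.6 RPKM with vehicle and 25.0 and 23.3 RPKM with GW4064. Mafg made up 76.2% and 74.4% of this sum with vehicle and 79.8% and 78.1% with GW4064. The share of Maff went from 5.13% and 6.64% to 9.33% and 11.1%, and that of Mafk from 18.7% and 19.0% to 10.9% and 10.8%. These shares are of read density over rows of 5196 bases for Mafg, 10674 for Maff and 11116 for Mafk. In reads, not scaled to length, Mafg had 825 and 791 and Mafk 433 and 431 with vehicle. Maff and Mafk overlapped per row length after GW4064, with ranges of 2.33 to 2.58 and 2.52 to 2.71 RPKM.

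**Figure D1:**
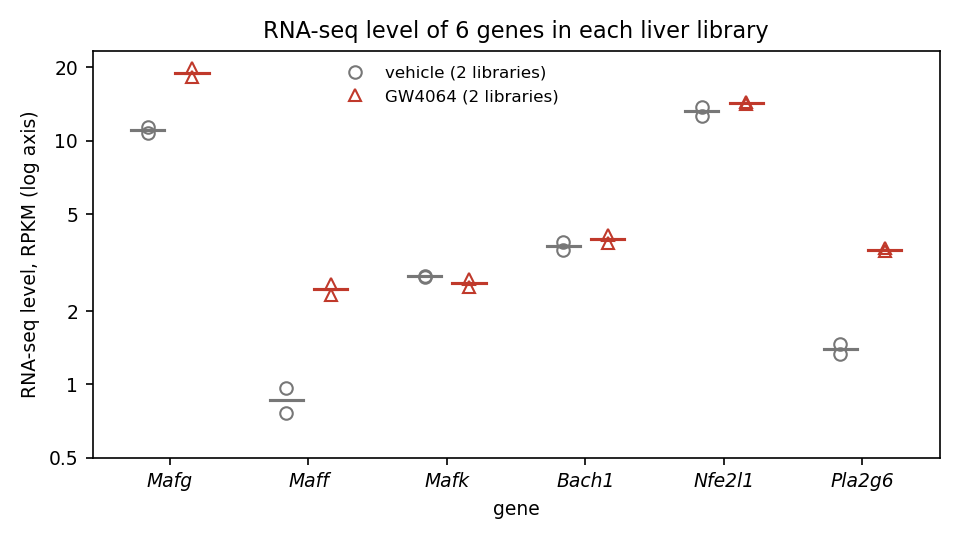
RNA-seq level in RPKM (log axis) of the 6 genes in the 2 vehicle libraries (circles) and the 2 GW4064 libraries (triangles), with horizontal lines at the mean of each pair. The treatments lie far apart for Mafg, Maff and Pla2g6 (means of 11.1 and 19.1, 0.867 and 2.45, and 1.40 and 3.58 RPKM). The pairs of Mafk, Bach1 and Nfe2l1 lie close together.

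Bach1, the gene of the heme-regulated repressor that binds DNA with small Mafs, was at 3.57 and 3.85 RPKM with vehicle and at 3.80 and 4.11 RPKM with GW4064. The groups overlapped. Its log2 FC was 0.09 (SE 0.07, 95% interval -0.12 to 0.30, limma adjusted p = 0.55). The row lies on chromosome 16 from 87698954 to 87733346. The level of Mafg relative to that of Bach1, both per row length, was 3.19 and 2.82 in the vehicle libraries and 5.25 and 4.43 in the GW4064 libraries.

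Nfe2l1, the gene of a membrane-anchored CNC activator that drives proteasome genes, had the highest level per row length of the 6 in vehicle livers. It was at 13.8 and 12.7 RPKM with vehicle and at 14.2 and 14.4 RPKM with GW4064. The groups were separate but close, with a log2 FC of 0.11 (SE 0.07, 95% interval -0.07 to 0.30, limma adjusted p = 0.42). With quantile normalization it was -0.00057. The row lies on chromosome 11 from 96817414 to 96823931 and starts inside the longer GENCODE gene, which reaches 96829968.

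Pla2g6 was at 1.33 and 1.46 RPKM with vehicle and at 3.64 and 3.52 RPKM with GW4064. The groups were far apart relative to their spread, with means of 1.40 ± 0.0926 and 3.58 ± 0.0834 RPKM (SD, n = 2 libraries each). The increase was 2.46-fold (95% interval 2.16 to 2.81), a log2 FC of 1.30 (SE 0.07, limma adjusted p = 0.015). Its row lies on chromosome 15 from 79286228 to 79328371 on the minus strand and rests on 781 to 2134 reads per library. GENCODE places the transcript Gm20420 on the opposite strand inside it, from 79314196 to 79316658, and whether reads were counted by strand is not given in the sources used here.

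In vehicle livers the order of RNA-seq levels per row length was Nfe2l1, Mafg, Bach1, Mafk, Pla2g6 and Maff, and no neighbours in this order overlapped. After GW4064 Mafg stood above Nfe2l1 and Pla2g6 stood above Mafk. Only Mafk and Maff then overlapped among neighbours in the order.

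GRO-seq gives nascent RNA in each genotype, and with 1 library per group it cannot decide whether a change needed hepatocyte FXR. In Fxr-Flox livers nascent RNA of Mafg, Maff and Pla2g6 was higher after GW4064. In the libraries labelled FXR KO none of the 3 was higher by 1.5-fold, although Pla2g6, with a log2 ratio of 0.36, was above its counting error. All 6 genes passed the GRO-seq filter on low values. With 1 library per group there is no test, and the 95% intervals below are exact binomial intervals of the ratio of reads that cover counting error only. A gene was counted as past 1.5-fold on log2(RPKM + 0.1) where a library of the pair held 20 reads or more.

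In Fxr-Flox livers, 3 of the 6 genes were past 1.5-fold higher after GW4064 and none lower, where 6.10% of 10169 genes were past it higher and 6.83% lower. Mafg went from 10.7 RPKM (786 reads) to 17.3 RPKM (954 reads), a log2 ratio of 0.70 (0.56 to 0.84). Maff went from 0.449 RPKM (68 reads) to 1.74 RPKM (197 reads), a log2 ratio of 1.95 (1.55 to 2.37). Pla2g6 went from 0.936 RPKM (559 reads) to 2.94 RPKM (1314 reads), a log2 ratio of 1.65 (1.51 to 1.80). These 3 intervals lie above 0, and the median log2 ratio of all genes was -0.09. Mafk went from 1.14 to 1.29 RPKM, with a log2 ratio of 0.18 (-0.14 to 0.50). Bach1 was at 3.27 and 3.35 RPKM, with a log2 ratio of 0.03 (-0.08 to 0.14), and Nfe2l1 at 5.72 and 6.84 RPKM, with a log2 ratio of 0.26 (0.08 to 0.44). Nfe2l1 was thus above its counting error but below 1.5-fold.

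In the libraries labelled FXR KO, none of the 6 genes was past 1.5-fold higher and 1 was past it lower, where 2.61% of genes were past it higher and 3.11% lower. Mafg was at 7.22 RPKM (193 reads) with vehicle and 7.97 RPKM (210 reads) with GW4064, a log2 ratio of 0.14 (-0.15 to 0.43). Maff was at 1.02 RPKM (56 reads) and 0.924 RPKM (50 reads), a log2 ratio of -0.14 (-0.72 to 0.43). Neither interval excludes 0. Pla2g6 went from 1.06 RPKM (230 reads) to 1.36 RPKM (291 reads), a log2 ratio of 0.36 (0.11 to 0.62), above its counting error. Mafk was the gene past 1.5-fold lower, from 2.10 RPKM (120 reads) to 1.05 RPKM (59 reads), a 0.499-fold level (0.359 to 0.687). In the same pair of libraries the summed level of the Kupffer cell markers was 6.82 and 4.96 RPKM. That of the sinusoidal endothelial markers was 13.0 and 10.7 RPKM. The sums for stellate (3.40 and 3.71 RPKM), biliary (2.86 and 3.29 RPKM) and blood cell markers (6.74 and 9.67 RPKM) went the other way. Any part of cell composition in the value of Mafk was not tested. Bach1 (0.07, -0.10 to 0.24) and Nfe2l1 (0.13, -0.12 to 0.39) had log2 ratios near 0.

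**Figure D2:**
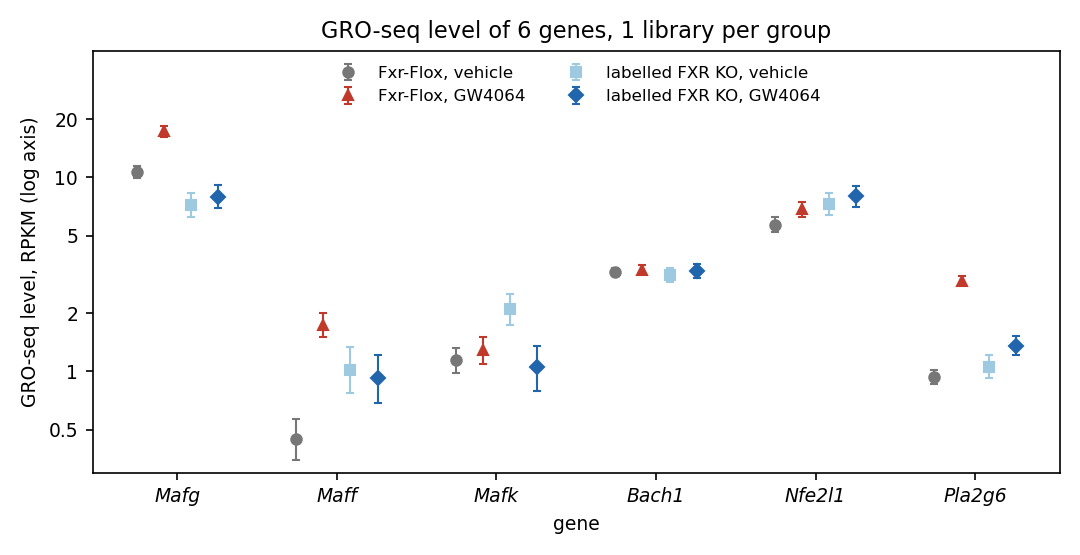
GRO-seq level in RPKM (log axis) of the 6 genes in the 4 libraries, with bars for the exact 95% Poisson interval of each read count. Mafg, Maff and Pla2g6 stand highest in the Fxr-Flox GW4064 library (17.3, 1.74 and 2.94 RPKM), Mafk stands highest in the vehicle library labelled FXR KO (2.10 RPKM), and Bach1 lies between 3.14 and 3.35 RPKM throughout.

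The difference between the genotypes in the log2 ratio of GW4064 to vehicle was 0.56 for Mafg (95% interval 0.24 to 0.87), 2.10 for Maff (1.42 to 2.78) and 1.29 for Pla2g6 (1.01 to 1.58). These are Fxr-Flox minus the libraries labelled FXR KO, and the intervals cover counting error only. The difference was 1.18 for Mafk (0.63 to 1.73), with a log2 ratio of 0.18 in Fxr-Flox libraries and a 0.499-fold level in those labelled FXR KO. For Bach1 it was -0.04 (-0.24 to 0.16) and for Nfe2l1 0.12 (-0.18 to 0.43), with intervals that include 0. Known FXR-induced genes set beside them varied. The difference was 3.21 for Abcb11 (3.06 to 3.36) and -0.01 for Nr0b2 (-2.12 to 2.10), whose vehicle library labelled FXR KO held 2 reads. Osgin1 was past 1.5-fold higher in both genotypes, with log2 ratios of 3.18 (3.09 to 3.27) in Fxr-Flox libraries and 1.23 (1.04 to 1.43) in those labelled FXR KO. In these data no treatment has a second library in either genotype, so the spread between mice was not measured.

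**Figure D3:**
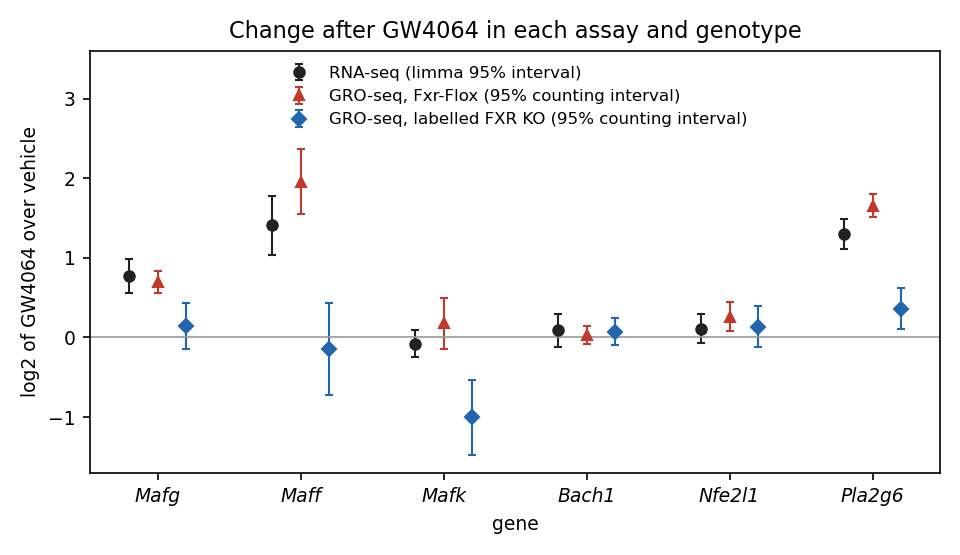
Log2 of GW4064 over vehicle for the 6 genes in RNA-seq (circles, limma 95% interval, 2 libraries per treatment), GRO-seq of Fxr-Flox livers (triangles) and GRO-seq labelled FXR KO (diamonds), the GRO-seq bars being 95% counting intervals of 1 library per group. Maff reaches 1.41, 1.95 and -0.14, Pla2g6 1.30, 1.65 and 0.36, and Mafg 0.77, 0.70 and 0.14, while Mafk is at a 0.499-fold level in the libraries labelled FXR KO.

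The genotypes also differed under vehicle. Against Fxr-Flox, the vehicle library labelled FXR KO was past 1.5-fold higher for Maff and Mafk and lower for none of the 6, where 5.83% of genes were past it higher and 5.77% lower. The log2 ratio was 1.18 for Maff (0.65 to 1.71, from 68 and 56 reads) and 0.88 for Mafk (0.53 to 1.22). Mafg was lower by less than 1.5-fold, with a log2 ratio of -0.56 (-0.80 to -0.33), and Nfe2l1 had a ratio of 0.36 (0.13 to 0.58). Pla2g6 (0.18, -0.05 to 0.41) and Bach1 (-0.06, -0.20 to 0.08) were within counting error. Maff thus had its lowest level in the Fxr-Flox vehicle library, to which its increase after GW4064 is referred, and without that library its 3 other values were 1.74, 1.02 and 0.924 RPKM.

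After GW4064, the library labelled FXR KO was past 1.5-fold lower for Mafg, Maff and Pla2g6 and higher for none, where 7.74% of genes were past it lower and 6.46% higher. The log2 ratios were -1.12 for Mafg (-1.34 to -0.90), -0.91 for Maff (-1.39 to -0.46) and -1.11 for Pla2g6 (-1.30 to -0.93). Mafk (-0.30, -0.76 to 0.14) and Bach1 (-0.02, -0.17 to 0.12) were within counting error, and Nfe2l1 had a ratio of 0.23 (0.01 to 0.45). These comparisons share libraries with the treatment comparisons and are the same values arranged by genotype.

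Maff and Pla2g6 are divergent neighbours. Their rows start 20031 bases apart, on opposite strands with no other row between them, and both rose in RNA-seq and in Fxr-Flox GRO-seq. Across the 8 libraries, after the mean of each assay was subtracted, their log2 levels had a Pearson r of 0.934, against 0.874 for Mafg and Pla2g6 and 0.674 for Mafg and Maff. These are descriptions over libraries that share depth and treatment. In the libraries labelled FXR KO the neighbours had log2 ratios of -0.14 (Maff) and 0.36 (Pla2g6), with overlapping counting intervals.

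Besides the 6 genes themselves, 25 rows lay within 50 kb of them, of which 16 averaged 0.5 RPKM or more in both assays. Of these 16, none was called higher or lower in RNA-seq by limma (background 2.13% and 1.15%), with 3 at an unadjusted p under 0.05 and 1, Sirt7, called by limma-voom. Among all genes limma-voom called 522 higher and 481 lower. Of the same 16, 2 were past 1.5-fold higher in Fxr-Flox GRO-seq (background 6.10%). Tmem184b, a transmembrane protein gene that converges on Maff with a gap of 1608 bases, had a Fxr-Flox log2 ratio of 0.83 (0.64 to 1.02), one of 0.15 (-0.14 to 0.44) in the libraries labelled FXR KO, and an RNA-seq log2 FC of 0.23 (limma adjusted p = 0.17). Alyref, an mRNA export factor gene, had a Fxr-Flox log2 ratio of 0.96 (0.35 to 1.57), one of -0.88 (-1.89 to 0.07, on 28 and 15 reads) in the libraries labelled FXR KO, which is past 1.5-fold lower, and an RNA-seq log2 FC of 0.17 (adjusted p = 0.40).

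Sirt7, a sirtuin deacetylase gene, lies downstream of Mafg on the same strand, with 3337 bases between the rows. It was at 6.78 and 7.17 RPKM with vehicle and at 10.3 and 9.39 RPKM with GW4064 in RNA-seq. The log2 FC was 0.49 (limma adjusted p = 0.067, and 0.015 with limma-voom on rebuilt reads). Its GRO-seq log2 ratio was 0.41 (0.22 to 0.59) in Fxr-Flox libraries and -0.03 (-0.39 to 0.32) in those labelled FXR KO. GENCODE extends Mafg to 120625117 and Sirt7 to 120625240, so the genes overlap there by annotation. This overlap lies in neither measured row, since the Sirt7 row ends at 120625014 and the Mafg row has its lower end at 120628351. The part of reads from Mafg transcription in the value of Sirt7 was not tested.

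**Figure D4:**
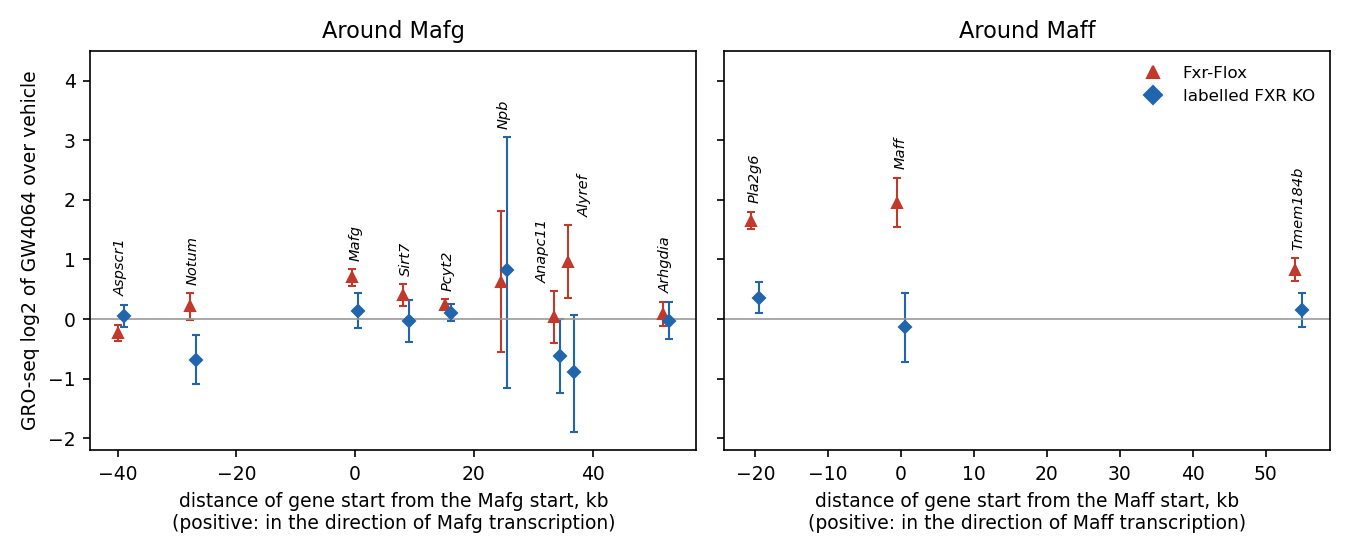
GRO-seq log2 of GW4064 over vehicle (95% counting intervals) of Mafg, Maff and their neighbours averaging 0.5 RPKM or more, by the distance in kb of each gene start from the start of Mafg (left) or Maff (right), positive in the direction of that gene's transcription. Symbols of the genotypes, and of Alyref and Anapc11, are set slightly apart for clarity. In Fxr-Flox (triangles) Maff is at 1.95, Pla2g6 at 1.65 and Tmem184b at 0.83, and around Mafg the values are 0.70 for Mafg and 0.41 for Sirt7.

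Among related gene lists, few genes passed the RNA-seq test, and no list was tested as a set. Of all 11408 genes tested, limma called 2.13% higher and 1.15% lower, and limma-voom called 522 genes higher and 481 lower. For counts at an unadjusted p under 0.05, the share of all genes was not counted. Of the Maf family, 5 of 7 genes were measured well enough to be tested, and the 2 that rose were Mafg and Maff. None of 6 CNC and BACH genes or NRF2 regulators passed with limma, with a median log2 FC of 0.10, and the 2 at an unadjusted p under 0.05, Nfe2l2 and Nfe2l3, passed with limma-voom. Nfe2l2, which encodes NRF2, had a log2 FC of 0.27 (adjusted p = 0.10, vehicle 4.57 and 4.60 RPKM, GW4064 5.61 and 5.47 RPKM), with GRO-seq log2 ratios of 0.59 (0.46 to 0.72) in Fxr-Flox libraries and -0.07 (-0.30 to 0.15) in those labelled FXR KO. Nfe2l3 had a log2 FC of 0.60 (adjusted p = 0.11).

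Of 7 genes that process or degrade NFE2L1, none passed with limma, with a median of -0.13, and the 2 at an unadjusted p under 0.05, Sel1l and Btrc, passed with limma-voom. Sel1l, of the machinery that extracts proteins from the endoplasmic reticulum, had a log2 FC of -0.33 (adjusted p = 0.12), and Btrc, a ubiquitin ligase subunit gene, one of -0.31 (adjusted p = 0.23). Proteasome subunit genes are the known targets of NFE2L1. None of the 32 passed with limma or limma-voom, with 6 at an unadjusted p under 0.05. Their log2 FCs ranged from -0.06 to 0.23 with a median of 0.12, against -0.0028 for all genes tested. In all, 31 of the 32 were above 0, against 49.2% of all genes, and 25 of the 32 were above 0 with quantile normalization (median 0.07). Psmb3 had a log2 FC of 0.23 (adjusted p = 0.15) and Psmb2 one of 0.20 (adjusted p = 0.17). In GRO-seq, 25 of 32 were above 0 in Fxr-Flox libraries and 14 of 32 in those labelled FXR KO, and none was past 1.5-fold. The share of all genes above 0 was not counted for GRO-seq. The median log2 ratios of all genes were -0.09 and -0.02 in these pairs.

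Of 17 genes of heme, iron and antioxidant metabolism listed as carrying Maf recognition elements, 1 rose, 1 fell and 15 did not pass with limma (background 2.13% and 1.15%), with a median of -0.03. Whether each listed gene has such an element was not examined here. The gene that rose was Gclm, the modifier subunit of glutamate-cysteine ligase, which makes the precursor of glutathione (4.88 and 5.01 RPKM under vehicle, 7.28 and 7.59 RPKM under GW4064, log2 FC 0.58, limma adjusted p = 0.031). The gene that fell was Gclc, the catalytic subunit of the same enzyme (8.33 and 8.62 RPKM under vehicle, 5.47 and 5.21 RPKM under GW4064, log2 FC -0.66, limma adjusted p = 0.027). The GRO-seq log2 ratios went the same ways in Fxr-Flox libraries, 0.89 (0.80 to 0.99) for Gclm and -1.08 (-1.15 to -1.02) for Gclc. In the libraries labelled FXR KO they were 0.18 (0.01 to 0.35) and 0.51 (0.42 to 0.60). Limma-voom called 3 of the 17, these and Alas1, the first enzyme of heme synthesis, named here after its values were seen. Alas1 was at 18.5 ± 2.25 RPKM under vehicle and at 37.8 ± 4.66 RPKM under GW4064 (SD, n = 2 libraries each, log2 FC 1.02, adjusted p = 0.054 from limma and 0.0076 from limma-voom). Its GRO-seq log2 ratio was past 1.5-fold higher in both genotypes, at 0.66 (0.62 to 0.70) in Fxr-Flox libraries and 1.01 (0.95 to 1.06) in those labelled FXR KO. Of the 16 list genes kept in GRO-seq, 3 were past 1.5-fold higher and 1 lower in Fxr-Flox libraries (background 6.10% and 6.83%). In those labelled FXR KO, 1 was higher and 1 lower (background 2.61% and 3.11%). Hmox1, named above as repressed with BACH1, is given here after its values were seen. Its RNA-seq log2 FC was 0.11 (limma adjusted p = 0.86). Its GRO-seq log2 ratios were 0.68 (0.41 to 0.96) in Fxr-Flox libraries and 0.41 (0.05 to 0.77) in those labelled FXR KO.

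Of 13 genes of bile acid synthesis and uptake, 1 fell, none rose and 12 did not pass with limma, with a median of 0.08, and limma-voom called 3 (Akr1d1, Amacr and Baat). Baat, which conjugates bile acids, fell from 13.5 and 13.9 RPKM to 9.15 and 9.76 RPKM (log2 FC -0.53, limma adjusted p = 0.043), and Amacr, a racemase of side-chain oxidation, had a log2 FC of 0.34 (adjusted p = 0.078). In Fxr-Flox GRO-seq, 2 of the 13 were past 1.5-fold higher and 3 lower (background 6.10% and 6.83%). Cyp7a1, Cyp7b1 and Cyp8b1 are named here after their values were seen. Cyp7a1, which sets the pace of classical bile acid production, had GRO-seq log2 ratios of -1.91 (-2.07 to -1.75) in Fxr-Flox libraries and 0.15 (0.08 to 0.23) in those labelled FXR KO, and an RNA-seq log2 FC of -0.44 (adjusted p = 0.26). Cyp7b1, of the alternative pathway, was past 1.5-fold lower in both genotypes (-1.61, -1.65 to -1.57, and -1.19, -1.25 to -1.14), with an RNA-seq log2 FC of -0.23 (adjusted p = 0.82). Cyp8b1, a known target of MAFG in mouse liver, had a log2 FC of 0.05 (adjusted p = 0.81), with GRO-seq log2 ratios of 0.59 (0.46 to 0.73) in Fxr-Flox libraries and -0.51 (-0.65 to -0.37) in those labelled FXR KO. Of 10 phospholipase A2 and related lipase genes, only Pla2g6 passed the RNA-seq test, with a median of -0.01 over the list. Pla2g12a, a secreted phospholipase A2 gene, had a log2 FC of -0.19 (adjusted p = 0.18).

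Of 17 other basic leucine zipper genes tested, 1 fell, none was called higher and 16 did not pass with limma, with a median of 0.12. In this list 7 had an unadjusted p under 0.05, and limma-voom called 5, namely Atf3, Jun, Creb3l3, Nfil3 and Hlf. Over all genes limma-voom called 522 higher and 481 lower. Hlf, a clock-controlled PAR factor gene, fell from 3.28 and 3.33 RPKM to 1.78 and 1.63 RPKM (log2 FC -0.91, limma adjusted p = 0.020). Atf3, a stress-induced repressor gene, was at 0.413 and 0.257 RPKM with vehicle and at 1.13 and 1.28 RPKM with GW4064 (1.60, adjusted p = 0.054), with an adjusted p of 0.0076 from limma-voom on rebuilt reads. Jun, an AP-1 subunit gene named here after its values were seen, was at 7.07 and 5.23 RPKM under vehicle and at 10.8 and 13.7 RPKM under GW4064 (0.99, adjusted p = 0.11). Its GRO-seq log2 ratio was 1.51 (1.19 to 1.83) in Fxr-Flox libraries and 0.10 (-0.47 to 0.67) in those labelled FXR KO. Of 5 known FXR-induced genes tested, 4 rose, with a median of 2.37 over the list. They were Nr0b2 (2.54, adjusted p = 0.037), Abcb11 (2.37, adjusted p = 0.010), Osgin1 (2.46, adjusted p = 0.018) and Abcb4 (0.63, adjusted p = 0.037). The value of Mafg, 0.77, lay near that of the phospholipid transporter gene Abcb4.

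**Figure D5:**
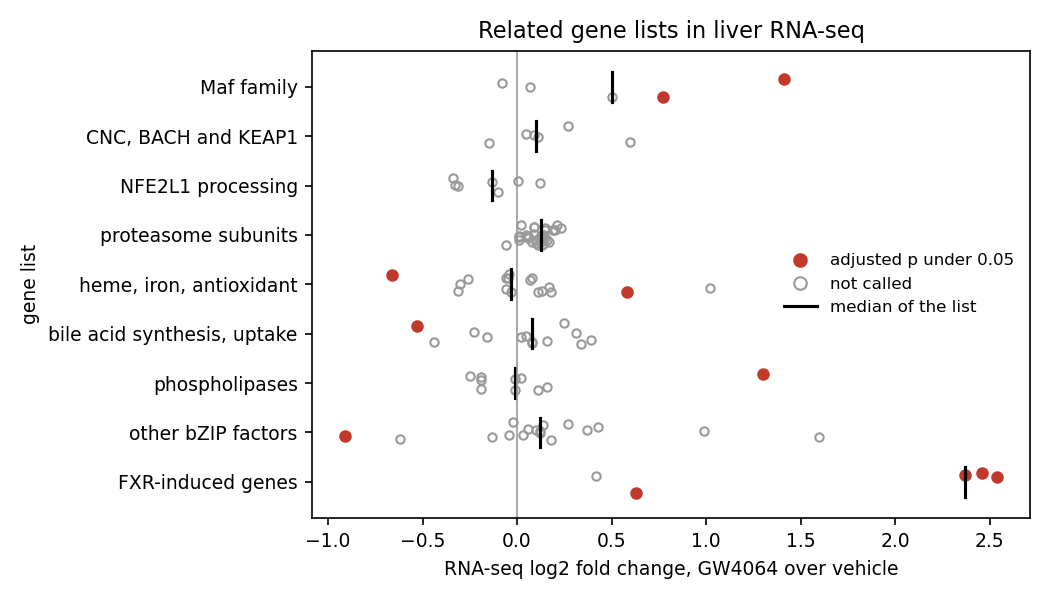
RNA-seq log2 FC of the genes tested in 9 lists (1 point per gene, filled where adjusted p is under 0.05, vertical line at the median of the list). Proteasome subunits lie between -0.06 and 0.23 and none is filled, and Pla2g6, at 1.30, is the only filled point among the phospholipases.

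Genes whose levels followed each of the 6 most closely over the 8 libraries were ranked among 6489 genes whose mean reached 1 RPKM in each assay, by the Pearson r of log2 levels after the assay means were subtracted. For Mafg they were Zfp983 (0.996), Sp3 (0.993) and Sbno2 (0.993), and for Maff Eif4h (0.989), Dlst (0.984) and Ddt (0.982). The size of the change was not part of this measure: Eif4h had an RNA-seq log2 FC of 0.19, against 1.41 for Maff. Pla2g6 was followed by Mkln1os (0.998), Fam47e (0.990) and Papss2 (0.989), with RNA-seq log2 FCs of 2.13, 2.04 and 0.84. Mafk was followed by Wdr81 (0.989), Lgals8 (0.984) and Marc1 (0.975), Bach1 by the proteasome gene Psmc6 (0.993) and Rps24 (0.958), and Nfe2l1 by Cyp4a14 (0.985) and Cyp4a10 (0.970). The 8 libraries share depth within an assay and only 4 are replicates, so these values are descriptions.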

How the data were processed

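The authors mapped RNA-seq and GRO-seq reads to mm10 with STAR, version 2.7.3a by the submitters' processing notes, quantified with HOMER and deposited RPKM values over whole rows, introns included. The labels and the paper name different RNA-seq library kits. Multiplying RPKM by row length and a fitted library total returned whole reads, to within 0.15 read, for 100% of the testable values, and these rebuilt reads served for counting intervals, the 20-read minimum and limma-voom. The count-based test of the study was not used, since the values are RPKM, and RNA-seq was compared with limma 3.58.1 (R 4.3.3) on log2(RPKM + 0.1), eBayes with trend=TRUE, for genes averaging 0.5 RPKM or more, with Benjamini-Hochberg adjustment over 11408 genes. Replicates are pools of different mice, 2 libraries per group. The fit was also run on simulated data with known changes. Their replicate spread was set and not estimated from these libraries, so that run does not show how well changes are found here. GRO-seq ratios have 1 library per group and no test. Promoters came from RefSeq and transcripts from GENCODE, both on GRCm38, the assembly of mm10. Python 3.11.15, pandas 2.3.3, numpy 2.4.6, scipy 1.17.1 and matplotlib 3.10.9 were also used. The text names all 6 genes whatever their values, their 3 most alike genes, neighbours within 50 kb, and list genes past the test or, where fewer than 2 passed, the 2 of smallest p. Some genes that this rule would name are not reported here. The genes and lists were chosen with earlier results of these data known. GRO-seq intervals cover counting error only, and RNA-seq intervals are 95% limma intervals between libraries. Alternatives were other added values (0.01 and 1 RPKM), filters, scalings, eBayes settings, the replicate block, omission of each library, limma-voom, rows of at least 300 bases and a 2-fold threshold.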

Additional observations from a re-analysis of the deposited data

Results flagged for a closer look

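For Maff the GRO-seq log2 ratios of the 2 genotypes had opposite signs. In the libraries labelled FXR KO the ratio was within counting error of 0. On log2(RPKM + 0.1), GW4064 minus vehicle was 1.75 in Fxr-Flox livers and -0.13 in the libraries labelled FXR KO. The difference was not tested, because each group has 1 library, and the ratio of reads behind the value of -0.13 has a 95% counting interval of -0.72 to 0.43 on the log2 scale.

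For Mafk the same values were 0.16 in Fxr-Flox livers and -0.94 in the libraries labelled FXR KO. This difference was not tested either. The counting interval of the log2 ratio of reads was -0.14 to 0.50 in Fxr-Flox livers, and the value of -0.94 rests on 120 and 59 reads.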

How the results depend on the processing

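Mafg, Maff and Pla2g6 were higher after GW4064 in RNA-seq under all 16 alternatives, with log2 fold changes of 0.66 to 0.84, 0.89 to 1.56 and 0.93 to 1.36 and adjusted p of 0.0037 to 0.18, 0.0037 to 0.16 and 0.00071 to 0.13. They passed the test in 9, 10 and 11 of the 16. With no filter only 1 of the 6 genes, Pla2g6, was called higher (Mafg adjusted p = 0.12, Maff adjusted p = 0.14 from limma), and with quantile normalization Mafg was not called (0.66, adjusted p = 0.061) and Nfe2l1 was at -0.00057. Same-numbered replicates did not deviate together (correlation of -0.022), so the numbers were not taken as pairs. With the replicate block, 0 of the 6 genes and 0 genes in all were called higher and 0 lower, with 2327 of 11408 at an unadjusted p under 0.05 (Mafg adjusted p = 0.077, Maff and Pla2g6 0.073). With each library left out in turn, 0 of the 6 genes were called, and 0 to 32 genes in all were called higher and 0 to 11 lower, and 1590 to 1958 genes had an unadjusted p below 0.05; only the fit without vehicle replicate 1 made calls. Limma-voom on rebuilt reads called 522 genes higher and 481 lower, and rows of at least 300 bases gave 424 and 310; both called Mafg, Maff and Pla2g6. In GRO-seq, a 2-fold threshold left 2 of 3 genes higher in Fxr-Flox (without Mafg), 2 of 3 lower in the GW4064 library labelled FXR KO than in that of Fxr-Flox (as did adding 1 RPKM, with Maff at -0.51), 0 of the 6 genes lower with GW4064 than with vehicle in the libraries labelled FXR KO, and 1 (Maff) higher in the vehicle library labelled FXR KO than in Fxr-Flox. With 1 RPKM added, 0 were past 1.5-fold in that comparison. Adding 1 RPKM also brought the Fxr-Flox log2 ratio to 0.92 for Maff and 1.03 for Pla2g6. Depth limits Maff and Mafk most, with 50 to 120 reads per library labelled FXR KO.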
